A study of Urocitellus parryii with 3 samples.

Results

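The miR-29 family comprised mmu-miR-29a, mmu-miR-29b and mmu-miR-29c (miR-29a, miR-29b and miR-29c below), which were taken by their entry names on a mouse miRNA microarray and were 3 of its 577 miRNA entries, 567 of them for mouse. The RNA came from liver of a hibernating mammal, the arctic ground squirrel (Urocitellus parryii), at 3 stages. Late torpor ("late topor" in the labels) is the cold, inactive state, early arousal is the start of rewarming from it, and post-reproduction falls in the active season. Total RNA of the animals of a stage was mixed in equal parts into 1 pool, 100 ng of the pool was labelled with Cy3, and each pool was put on 1 array, all on the same slide. No genotype, treatment, age or sex is given in the labels, and how many animals made up a pool is not stated there either. With 1 array per stage there was no replicate, so no test between stages was made and no p-value is given.

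MicroRNAs of the miR-29 family share a seed, the stretch near the 5′ end that pairs with target messenger RNAs, and so are predicted to share targets. They are best known as repressors of extracellular matrix genes, among them collagens, elastin and fibrillin, and of the DNA methyltransferases Dnmt3a and Dnmt3b. In mouse and human liver the stellate cells, which lay down collagen in fibrosis, lose miR-29 when they are activated, and hepatocytes express the family as well. The targets themselves were not measured here.

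The family comes from a pair of clusters in the mouse genome. The positions given for the probe targets (build mm9) put miR-29b at chromosome 1, 196863287 to 196863307, and miR-29c at chromosome 1, 196863794 to 196863815. Between them lay 486 bases. miR-29a lay on chromosome 6, at 31012673 to 31012692, and the opposite strand of a second miR-29b copy, miR-29b*, lay 374 bases away. The genome strand of the genes was not taken from these probe positions. Mature miR-29b is made from both clusters, so a miR-29b signal cannot be split between them. The files name no gene, exon or intron at these positions. Each member had 2 probes with 10 spots per array. The paired probes had targets that differed by 1 base in length at one end, so they read nearly the same sequence and were not separate measurements. The probes were designed for mouse, and their match to the squirrel miRNAs was not tested, nor was the signal that members with such similar sequences may share. No probe or miRNA sequence was at hand, and none is shown.

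The members were well within the range the arrays measured. Every kept spot of their 6 probes was marked well above background, and the dimmest of these probes averaged 122 to 132 intensity units. The lowest spot well above background lay at 8.49 in late torpor, 10.1 in early arousal and 10.7 in post-reproduction. The 672 negative control spots had medians of 1.69, 1.36 and 1.21 in the same order. No spot was saturated. Outlier flags removed 1 spot from each miR-29a probe in early arousal, and 3 spots of the shorter and 1 of the longer miR-29b probe in post-reproduction. As a check of the tissue, 6 of 7 listed hepatocyte miRNAs, miR-122 included, were detected on each array. Of the 4 listed muscle miRNAs, 3 were detected in late torpor, 2 in early arousal and 0 in post-reproduction, with summed total signals of 45.3, 26.9 and 20.9 units against 67159, 58546 and 59394 for the hepatocyte list.

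As deposited, the 3 members did not share one pattern over the stages. The shorter miR-29a probe had spots from 988 to 1068 units (median 1020) in late torpor, from 987 to 1072 (median 1048) in early arousal and from 847 to 938 (median 894) in post-reproduction. The longer miR-29a probe had spots from 2465 to 2962 (median 2854) in late torpor, from 2487 to 2938 (median 2744) in early arousal and from 2267 to 2710 (median 2550) in post-reproduction. Both probes were thus brightest in the hibernation stages and dimmest in post-reproduction, where the spots of the shorter probe did not overlap those of either other array and the spots of the longer one did.

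miR-29c had another order. Its shorter probe had spots from 684 to 788 units (median 754) in late torpor, from 585 to 674 (median 626) in early arousal and from 642 to 768 (median 719) in post-reproduction. Its longer probe had spots from 764 to 878 (median 833), from 663 to 791 (median 722) and from 763 to 859 (median 821) in those 3 stages. Early arousal was the dim array for both probes, and the spots of the shorter probe did not overlap between early arousal and late torpor.

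miR-29b differed little on its shorter probe, with spots from 111 to 133 units (median 126) in late torpor, from 113 to 134 (median 122) in early arousal and from 129 to 139 (median 130) in post-reproduction. Its longer probe had spots from 1095 to 1220 (median 1187) in late torpor, from 1017 to 1079 (median 1055) in early arousal and from 1099 to 1208 (median 1158) in post-reproduction. On the longer probe early arousal was the dim array, as for miR-29c, and its spots did not overlap those of the other two arrays.

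**Figure D1:**
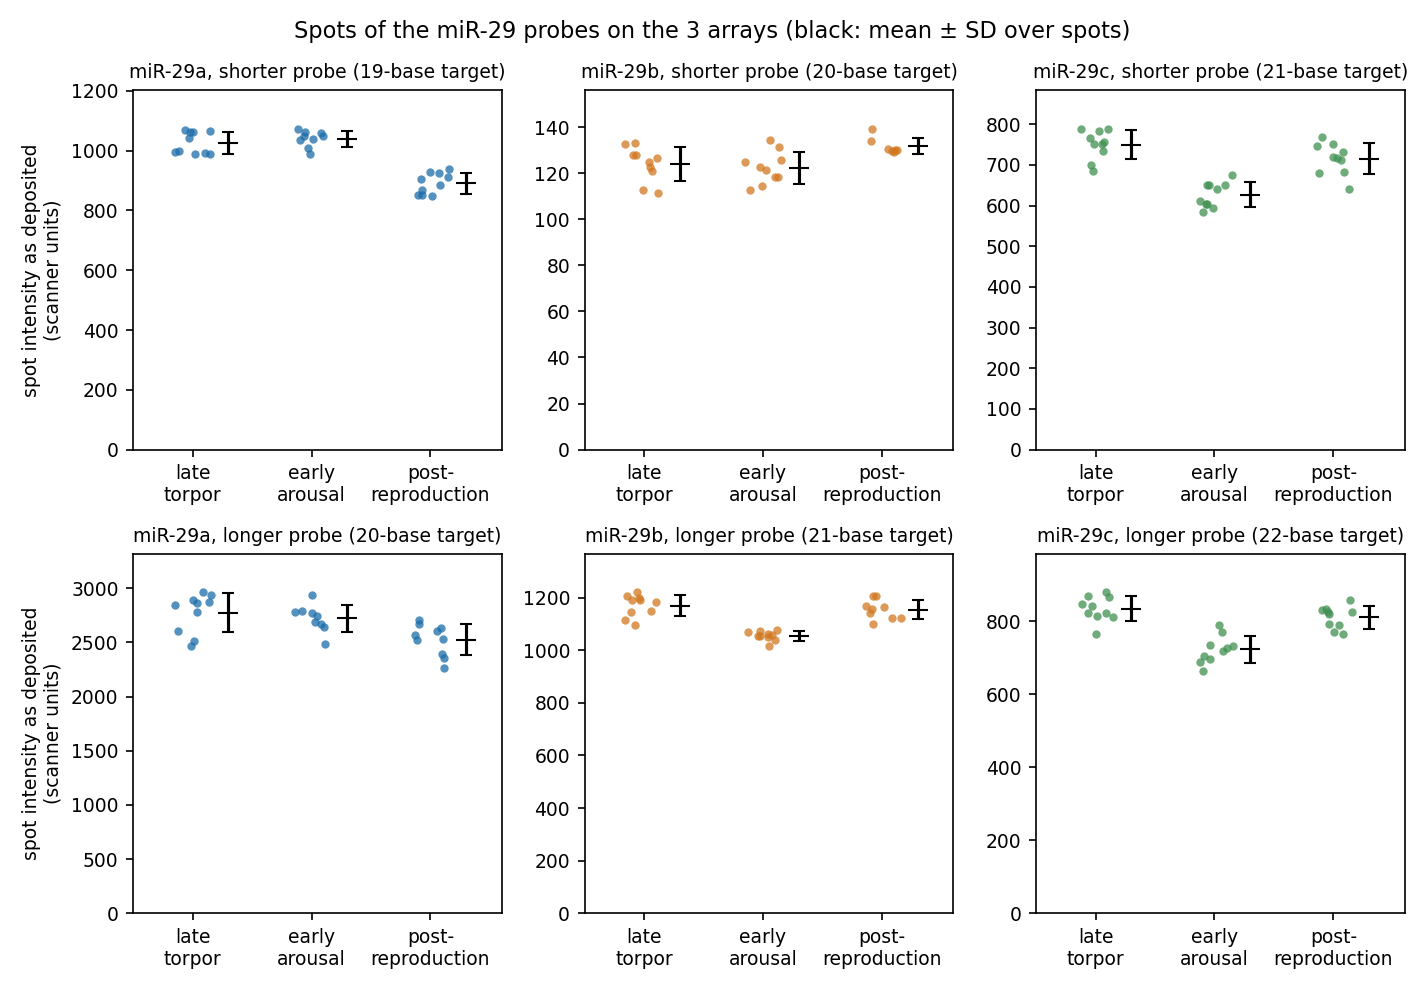
Spot intensity as deposited (vertical axis, scanner units, from 0) of the shorter and longer probe of each miR-29 member on the late torpor, early arousal and post-reproduction arrays. Points are single spots without outliers, and black bars are the mean ± SD over 7 to 10 spots. miR-29a is dimmest in post-reproduction, and miR-29c is dimmest in early arousal.

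The scanner program's own summed signal per miRNA can be set beside these. For miR-29a it was 2721 units in late torpor, 2676 in early arousal and 2442 in post-reproduction. For miR-29b it was 926, 837 and 919, and for miR-29c it was 1134, 959 and 1090, in the same stages. The program's own error was 192 to 212 units on the sums of miR-29a, 75.5 to 84.3 on those of miR-29b and 68.1 to 80.4 on those of miR-29c. As on the spots, post-reproduction was the dim array for miR-29a and early arousal for miR-29b and miR-29c.

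To compare arrays, log2 intensities were averaged over the spots of a probe and scaled by a percentile, the 75th, of those 250 probes that every array detected. It was 349 units in late torpor, 350.4 in early arousal and 398 in post-reproduction, so scaling lifts both hibernation arrays relative to post-reproduction. A miRNA with a probe detected on all 3 arrays is called measured, and 135 mouse miRNAs were, all 3 members among them. Scaled log2 values of miR-29a were 2.27 ± 0.02 in late torpor, 2.26 ± 0.01 in early arousal and 1.91 ± 0.02 in post-reproduction (SE from spots, which covers spot spread only, as do all intervals below). Those of miR-29b were 0.12 ± 0.02, 0.04 ± 0.01 and -0.03 ± 0.01, and those of miR-29c were 1.18 ± 0.01, 0.94 ± 0.02 and 0.93 ± 0.02, in the same order of stages. Levels of different members are read by different probes and are not compared. The range over the arrays was 0.36 for miR-29a, 0.15 for miR-29b and 0.25 for miR-29c, beside a median range of 0.36 over the 135 measured miRNAs. Of those, 18 had a smaller range than miR-29b, 34 than miR-29c and 65 than miR-29a. Over all 14 settings of the processing, the share of measured miRNAs with a smaller range ran from 0% to 30.4% for miR-29b, from 5.16% to 52.6% for miR-29c and from 8.59% to 72.6% for miR-29a.

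Late torpor was set against post-reproduction to ask how the liver's miRNAs deep in hibernation differ from those outside it. All 3 members were higher in late torpor after scaling: miR-29a stood 1.28-fold above post-reproduction (spot-based 95% interval 1.24 to 1.32), miR-29c 1.19-fold (1.15 to 1.22) and miR-29b 1.11-fold (1.08 to 1.14). All 3 were lower with the percentile taken over all probes without a floor. Of all probes, 17.9% were detected in late torpor, 16.5% in early arousal and 15.9% in post-reproduction. Such a percentile, with or without a floor, thus lies among probes near background. miR-29b was also lower without scaling, after quantile normalization, with the total gene signal and with strict detection. Sizes moved with the processing as well. As reported, the log2 difference of miR-29a was 0.36. It was 0.17 unscaled, 0.14 after quantile normalization, 0.12 with strict detection and 0.11 with the total gene signal. That of miR-29c was 0.25 as reported, and 0.055, 0.15, 0.010 and 0.015 in the same settings. Over all 13 alternatives they ran from -0.032 to 0.39 and from -0.15 to 0.26. No member came near a 2-fold difference. Among all 135 measured miRNAs, 2.22% passed the rule of size (at least 2-fold, over 2 SE and of 1 sign in every measured probe), 65.2% were higher by any amount and 34.8% were lower. All 3 members lay on the side that most measured miRNAs took. The family's median log2 difference was 0.25, against 0.13 over all measured miRNAs. Relative to that median, miR-29a stood 0.23 above, miR-29c 0.11 above and miR-29b 0.02 above. miR-29a and miR-29c kept that side under each of 13 alternatives (0.15 to 0.27 and 0.054 to 0.17), while miR-29b changed side under 2. The 4 alternatives that only shift whole arrays cannot move a value set against that median. The measured miRNAs with a larger difference than miR-29a numbered 33.

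The red blood cell miRNAs miR-144, miR-451 and miR-486 were all past the rule of size in the same comparison. Their summed total signal was 4615 units in late torpor, 2778 in early arousal and 2213 in post-reproduction, and all 3 were detected on every array. The 7 listed leukocyte miRNAs summed to 883, 631 and 721 units, with 6 detected on each array. The stellate and smooth muscle miRNAs, 5 of 6 listed names being on the array and all 5 detected, summed to 205, 187 and 233 units. In the endothelial list, all 4 detected, the sums were 1839, 1668 and 1830. These sums are unscaled and mix members that went different ways. After scaling, 2 measured endothelial miRNAs were higher in late torpor than in post-reproduction and 2 lower. For leukocytes 5 were higher and 1 lower, and for stellate and smooth muscle 2 and 3. Of all measured miRNAs 65.2% were higher there. In such pooled tissue RNA, a change in the share of a cell type and a change of miRNA per cell cannot be told apart. The part of these cells in the miR-29 values was not tested.

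Early arousal was set against post-reproduction to ask how the rewarming liver differs from the liver outside hibernation. Here the members' values lay further apart. miR-29a was 1.28-fold higher in early arousal (1.24 to 1.31), nearly the same difference as in late torpor, which was set against the same post-reproduction array. Its shorter and longer probes had log2 differences of 0.41 and 0.29, a gap that the spot-based interval leaves out. miR-29b was 1.05-fold higher (1.02 to 1.07), and miR-29c had a log2 difference of 0.0066 ± 0.02 (SE from spots), with an interval of 0.975-fold to 1.04-fold that includes no difference. None passed the rule of size, which 3.7% of the 135 measured miRNAs passed, 2.96% as higher and 0.741% as lower. Of all measured miRNAs 55.6% were higher by any amount and 44.4% lower. The median of all measured miRNAs was 0.06, and miR-29a stood 0.29 above it, miR-29b 0.0035 above and miR-29c 0.06 below. The position of miR-29a above the median held under all 13 alternatives, from 0.23 to 0.35, and 26 measured miRNAs had a larger difference. Its difference itself was -0.021 with the percentile taken over all probes with a floor, and above 0 under the other 12 alternatives. miR-29b had a difference below 0 under 6 alternatives and miR-29c under 9, so neither kept 1 direction.

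Early arousal was set against late torpor to ask what differs between the 2 stages within hibernation. In the reported scaling miR-29a was at 0.995-fold (0.966 to 1.02), miR-29b was at 0.941-fold (0.914 to 0.968) and miR-29c was the lowest at 0.848-fold (0.823 to 0.873). The log2 difference of miR-29c was -0.24 ± 0.02 (SE from spots) and stayed below 0 under all 13 alternatives, from -0.49 to -0.03. The difference of miR-29a ran from -0.26 to 0.20 over these alternatives, above 0 under 5, and that of miR-29b from -0.34 to 0.12, above 0 under 3. Of the 135 measured miRNAs 2.96% passed the rule of size, 1.48% as higher and 1.48% as lower, none of them a member. By any amount 34.8% were higher and 65.2% lower in early arousal. Against the median of all measured miRNAs, which was -0.09, miR-29c stood 0.14 lower, miR-29a 0.09 higher and miR-29b 0.0056 higher, and 33 measured miRNAs were lower than miR-29c.

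**Figure D2:**
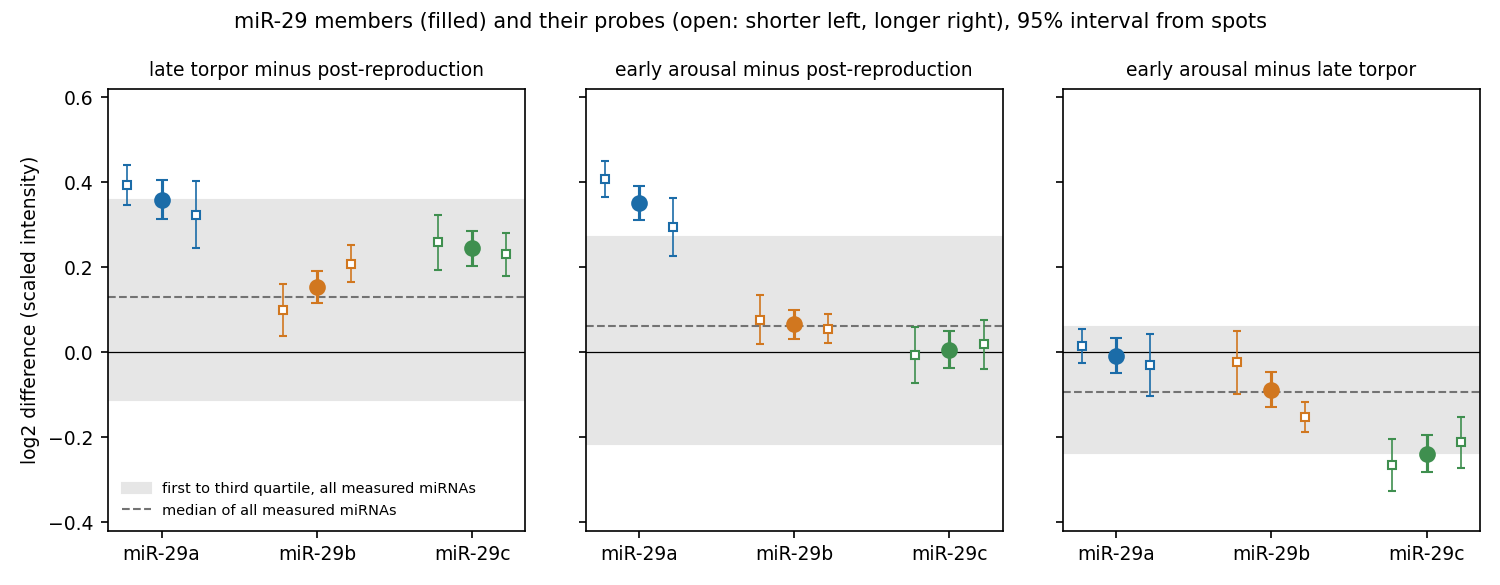
Log2 differences of the miR-29 members (filled circles) and of their shorter and longer probes (open squares) in the 3 comparisons, with 95% intervals from spots. The grey band runs from the first to the third quartile of all 135 measured miRNAs and the dashed line is their median. miR-29a lies above the band in early arousal minus post-reproduction and at its upper edge, barely above it, in late torpor minus post-reproduction. miR-29c lies at the lower edge of the band, barely below it, in early arousal minus late torpor.

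**Figure D3:**
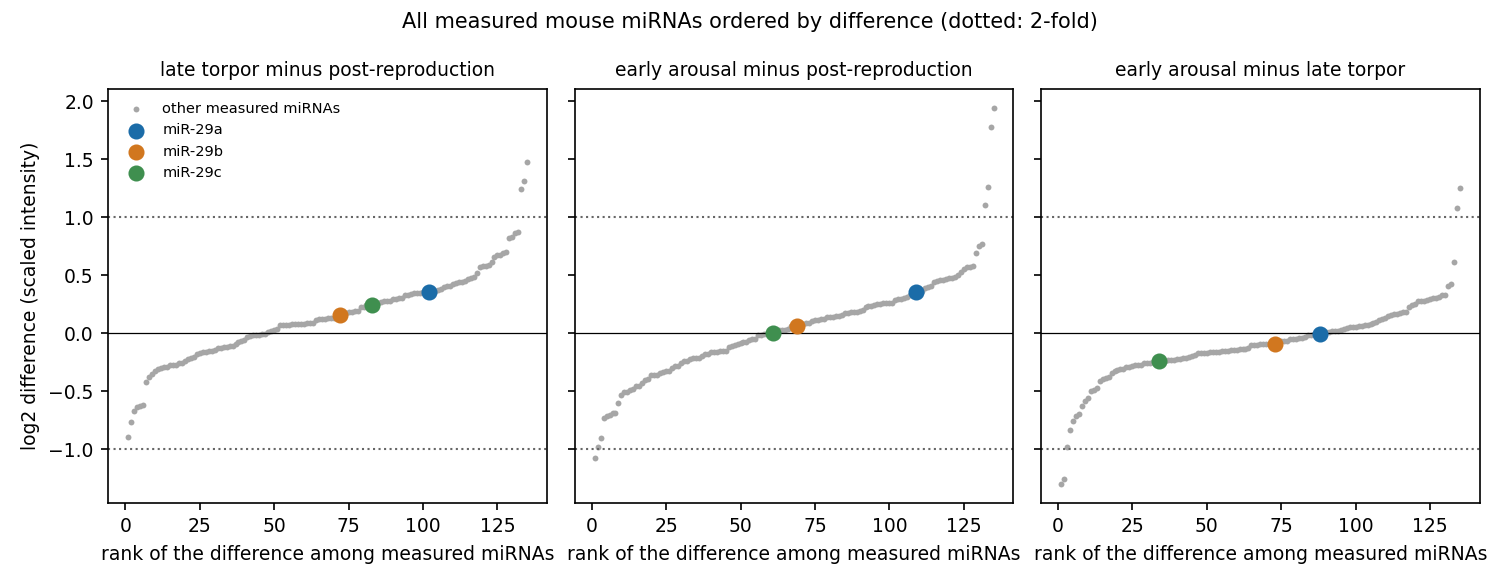
Log2 differences of all 135 measured mouse miRNAs in rank order (horizontal axis) for each comparison, with dotted lines at 2-fold. The miR-29 members, in colour, lie between the dotted lines in every panel, with miR-29a the highest of the 3 each time in the scaling shown (after quantile normalization miR-29c is 0.013 above it in late torpor minus post-reproduction).

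Differences between members are freer of the scaling, because a shift of a whole array cancels in them. The log2 difference of miR-29b in early arousal minus post-reproduction was lower than that of miR-29a by -0.29 ± 0.03 (SE from spots), and that of miR-29c was lower than that of miR-29a by -0.35 ± 0.03. Under 9 alternatives that could change these values they ran from -0.37 to -0.24 and from -0.41 to -0.21. These values correspond to 1.22-fold and 1.27-fold, between 1 pool and 1 pool. Between early arousal and late torpor, miR-29c was lower than miR-29a by -0.23 ± 0.03 (-0.28 to -0.18 over the alternatives) and lower than miR-29b by -0.15 ± 0.03 (-0.24 to -0.053). miR-29b was lower than miR-29a by -0.08 ± 0.03 (-0.17 to -0.04). In late torpor minus post-reproduction, miR-29b was lower than miR-29a by -0.21 ± 0.03 (-0.29 to -0.12) and miR-29c lower than miR-29a by -0.11 ± 0.03, a value that came to 0.013 after quantile normalization. miR-29c and miR-29b, which lie in 1 cluster, differed by 0.09 ± 0.03 there and by -0.06 ± 0.03 in early arousal minus post-reproduction, where quantile normalization gave 0.16. The 3 comparisons share arrays, so these values are not separate lines of evidence.

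The paired probes give a second view of the technical error. The shorter and longer miR-29a probes had, in early arousal minus post-reproduction, log2 differences of 0.41 and 0.29, a gap of 0.11, while those of miR-29b differed by 0.02 and those of miR-29c by 0.02. The largest gap among members was 0.13, for miR-29b in early arousal minus late torpor, with -0.02 on the shorter and -0.15 on the longer probe. That gap is larger in size than the -0.08 between miR-29b and miR-29a in the same comparison. In late torpor minus post-reproduction the miR-29b probes differed by 0.11, more than the 0.09 between miR-29c and miR-29b. The 105 measured miRNAs with several probes had a median gap of 0.06 to 0.07, and the gap of -0.06 between miR-29c and miR-29b in early arousal minus post-reproduction was no larger than that. Gaps of up to 0.61 occurred among them. Such gaps are left out of the spot-based intervals of the members. They show technical error on the same arrays only, and the spread between animals or pools of a stage was not measured.

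**Figure D4:**
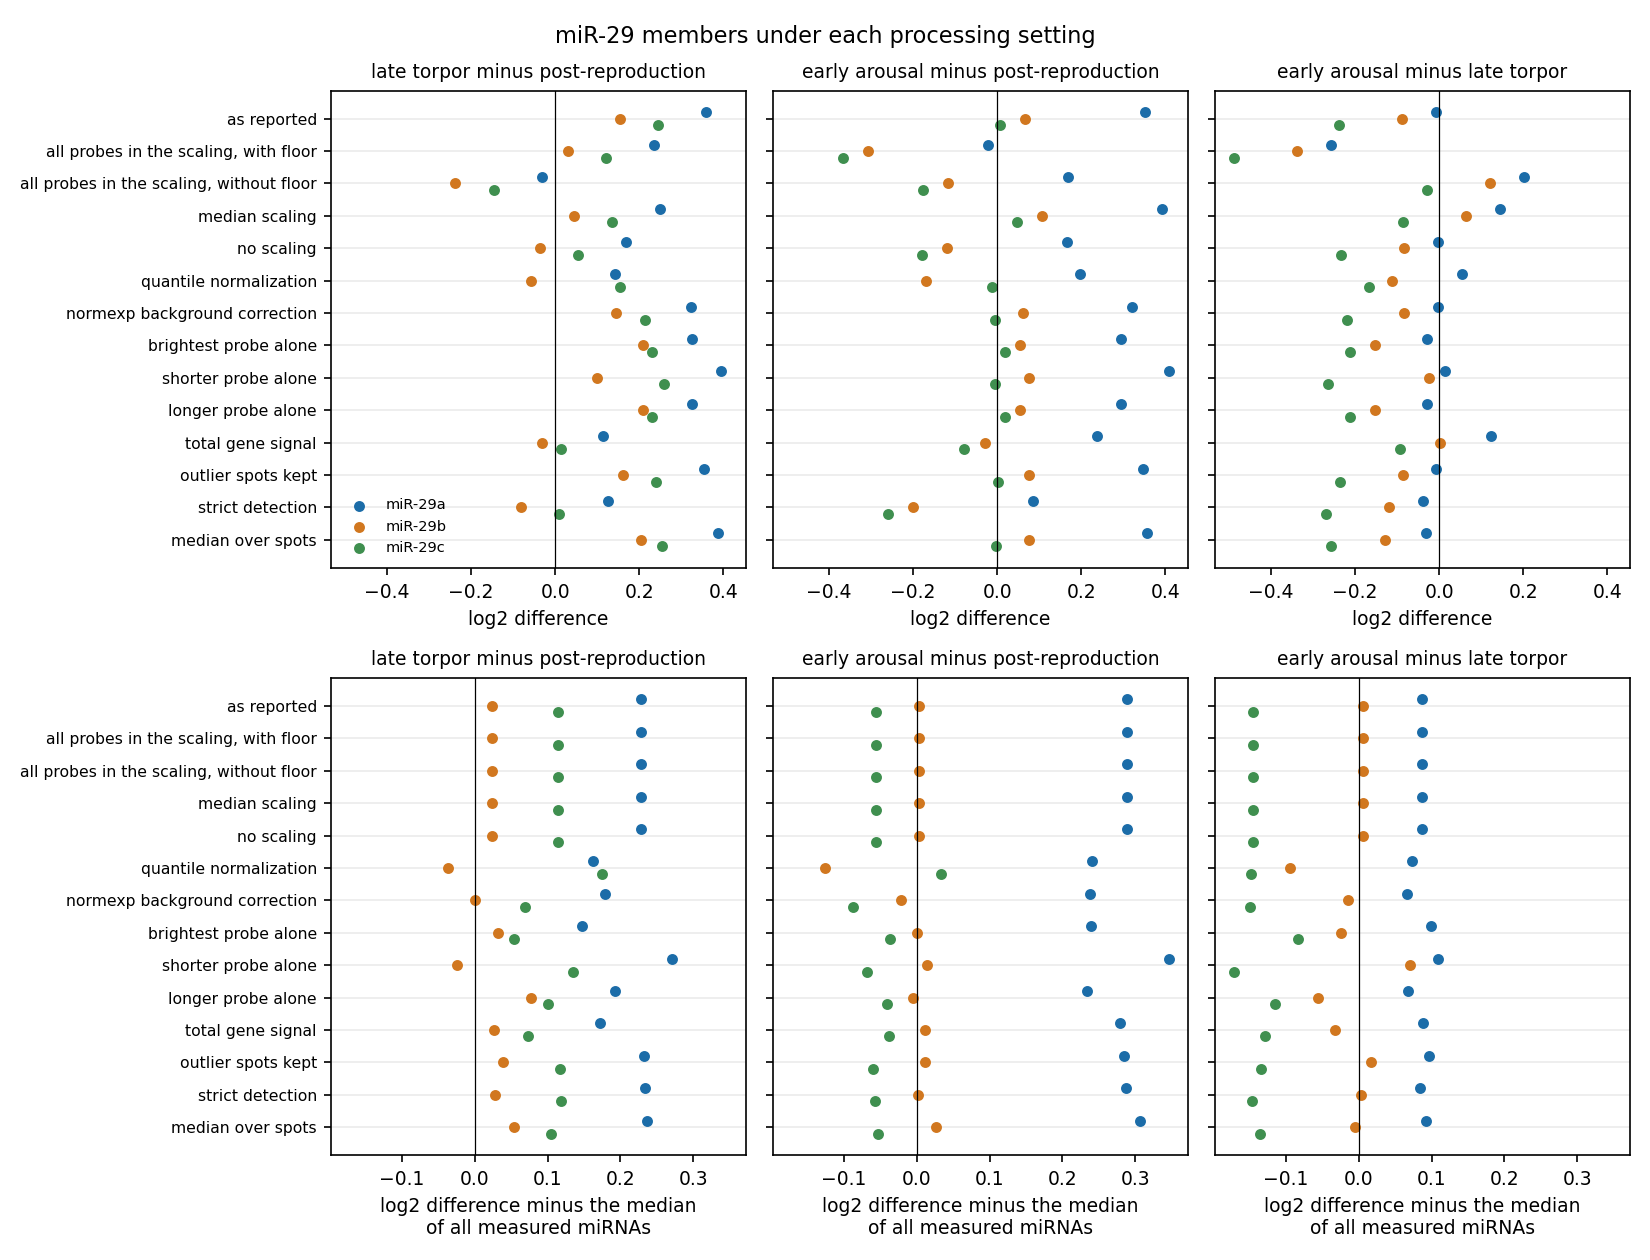
Log2 differences of miR-29a, miR-29b and miR-29c (horizontal axis) under each of 14 settings of the processing (rows), for the 3 comparisons. The upper panels show the differences, which move together with the scaling. The lower panels show them minus the median of all measured miRNAs, where miR-29a stays above 0 in every setting.

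The opposite (star) strands, which are mostly degraded when the hairpin is processed, were dim. By the rule that over 50% of a probe's spots be well above background, none of the 4 probes of miR-29a* was detected on any array, with means of -1.31 to 8.13 units. The scanner program, which calls whole entries, marked miR-29a* as detected in late torpor, at a total signal of 4.76 ± 1.31 (the program's error), and marked miR-29b* and miR-29c* as detected on all 3 arrays. By the rule on spots miR-29b* was detected by 1 of 4 probes, which averaged 19.4 ± 1.57 units in late torpor and 16.4 ± 5.80 in early arousal (SD, 5 spots each, all well above background), against 9.07 ± 2.29 in post-reproduction, where 1 of 5 spots was. miR-29c* was measured by both of its probes. The longer averaged 32.0 ± 3.75 units in late torpor, 27.5 ± 1.32 in early arousal and 33.5 ± 3.01 in post-reproduction (SD, 10 spots), and the means of the shorter lay between 10.2 ± 1.82 in early arousal and 13.3 ± 2.17 in post-reproduction (SD, 9 spots). The probes for viral miRNAs had median means of 1.36 units in late torpor, 0.40 in early arousal and 0.35 in post-reproduction. The brightest viral probe, taken as a strict upper mark for background, had 26.5, 22.2 and 26.6 units. The miR-29b* probe and the shorter miR-29c* probe lay above the viral median but below the brightest viral probe on every array. The longer miR-29c* probe lay a little above that brightest probe. By this strict mark no difference between stages is given for miR-29a*, miR-29b* and the shorter miR-29c* probe. On the longer miR-29c* probe the log2 difference was 0.12 ± 0.07 in late torpor minus post-reproduction (SE from spots). It was -0.10 ± 0.05 in early arousal minus post-reproduction and -0.22 ± 0.06 in early arousal minus late torpor.

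The miRNAs nearest to the family were found by the distance between their scaled log2 values, each centred on its mean over the 3 arrays, and the mean of the members. This distance does not change with a shift of whole arrays. miR-99b was nearest with a distance of 0.04, followed by miR-192 (0.06), miR-122 (0.07), miR-30d (0.08) and miR-497 (0.08), against a median of 0.28 over the 132 other measured miRNAs. The members themselves lay at 0.07 (miR-29b), 0.11 (miR-29c) and 0.15 (miR-29a), and 28 miRNAs outside the family were closer to its mean than miR-29a was. With 3 arrays such likeness is a description of these pools only.

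**Figure D5:**
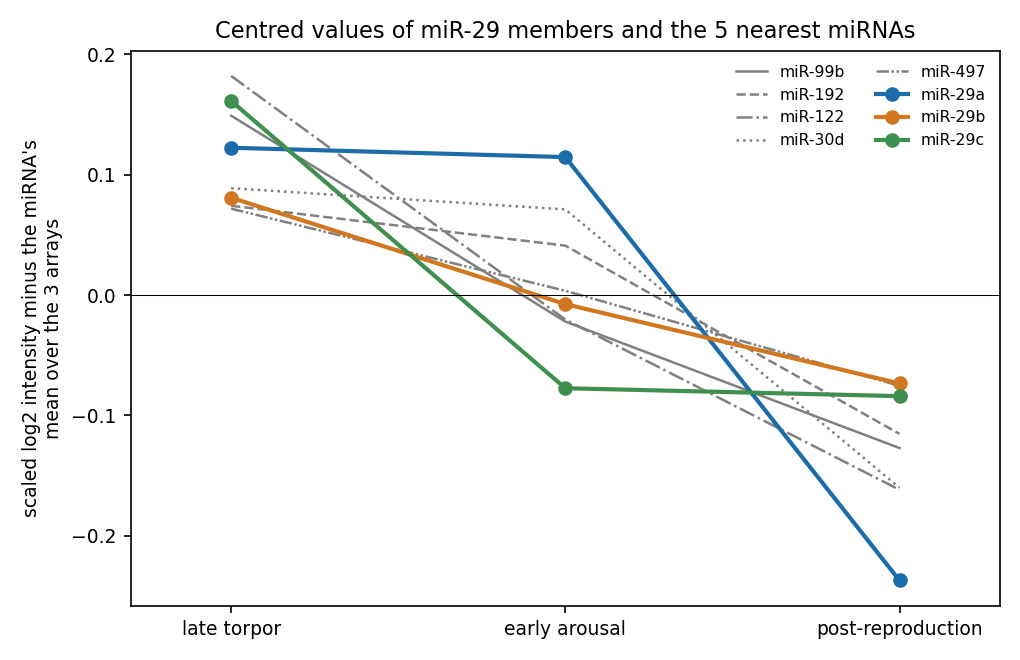
Scaled log2 intensity of each miR-29 member (coloured lines) and of the 5 nearest other miRNAs (grey lines), minus each miRNA's mean over the 3 arrays, in late torpor, early arousal and post-reproduction. miR-29a holds its late torpor value in early arousal (0.12 and 0.11), where miR-29c is at -0.08.

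Other miRNAs tied to liver fibrosis were described from 2 lists, chosen with earlier results of these data known. The list of miRNAs known to be raised in fibrosis or in activated stellate cells had 18 names, 17 on the array and 13 measured. None of the 13 passed the rule of size, which 2.22% of all measured miRNAs passed in late torpor minus post-reproduction, 3.7% in early arousal minus post-reproduction and 2.96% in early arousal minus late torpor, so a count of 0 is near that background. Their median log2 difference was -0.016 in late torpor minus post-reproduction, -0.28 in early arousal minus post-reproduction and -0.19 in early arousal minus late torpor. These medians lay below those of all measured miRNAs (0.13, 0.06 and -0.09) under each of 13 alternatives. Of these alternatives, 4 only shift whole arrays and cannot move that gap. Taking the shorter or longer miR-29 probe alone leaves the listed miRNAs' own values unchanged. In each comparison with post-reproduction 2 of the 13 listed miRNAs stood above the median of all measured miRNAs, and 5 did in early arousal minus late torpor. The highest in late torpor minus post-reproduction was miR-21, at 0.37 ± 0.01 (SE from spots), which is induced in injury in many tissues. The lowest in early arousal minus post-reproduction was miR-34a, a target of p53, at -0.90 ± 0.03. miR-222, found in endothelium and in activated stellate cells, was at -0.42 ± 0.04 in late torpor and -0.71 ± 0.04 in early arousal, each against post-reproduction.

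The list of miRNAs known to fall in fibrosis or to restrain matrix or stellate cells, miR-29 aside, had 21 names, 18 of them measured. Its median was 0.16 in late torpor minus post-reproduction, 0.23 in early arousal minus post-reproduction and 0.03 in early arousal minus late torpor. It lay above the median of all measured miRNAs by 0.17 in early arousal minus post-reproduction (0.11 to 0.18 over the alternatives) and by 0.12 in early arousal minus late torpor (0.07 to 0.14), and by 0.02 in late torpor minus post-reproduction, where 2 alternatives changed the side. Its members spread widely. miR-449a was the highest in early arousal minus post-reproduction at 0.75 ± 0.03 and miR-378 the lowest at -1.08 ± 0.02, the only 1 of the 18 past the rule of size, which 3.7% of all measured miRNAs passed there. The listed miR-449b was not detected on any array, while miR-449a had total signals of 914 units in late torpor, 1381 in early arousal and 916 in post-reproduction. What the mouse probes for miR-449a bind in squirrel RNA was not tested. In late torpor minus post-reproduction miR-15b was the highest at 0.88 ± 0.02 and miR-200b, an epithelial miRNA, the lowest at -0.89 ± 0.06.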

How the data were processed

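Agilent Feature Extraction 9.5.3.1 read the scans, as the submitters' processing notes and the headers record. The authors deposited 1 intensity per spot, from which that program had taken off a spatial background trend, and the headers record no normalization between arrays. The deposited flags for detection and outliers are other values of the same program, per the file headers. In the series table the deposited intensity was identical at all 12493 spots of each array, on a linear, uncentred scale with unchanged direction. Its medians were 1.15 for late torpor, 1.05 for early arousal and 1.13 for post-reproduction.

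Control and outlier spots were left out (280, 398 and 317 outliers in the same order). Spots at or below 0 were set to the lowest spot well above background, which touched no spot of a member. A probe was detected where over 50% of its kept spots were well above background. Log2 values were averaged over spots, then scaled by the 75th percentile over probes detected on all arrays, then averaged over those probes. The SE comes from spots. The number of arrays limits the precision. Python 3.11.15, numpy 2.4.6 and, for normexp, limma 3.58.1 were used. The computation was tested on simulated spots with known differences, read relative to the unchanged miRNAs. All simulated spots were above 0, so the floor was not tried. The alternatives were 5 other scalings, normexp, other summaries of probes or spots, outliers kept and strict detection. Named miRNAs were the members, their star strands, the 5 nearest miRNAs and the extremes of the lists. The members and lists were chosen with earlier results of these data known. Sequences were not analysed here.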

Additional observations from a re-analysis of the deposited data

How the results depend on the processing

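The direction of the family's median difference rested on the scaling. With the percentile over all probes with a floor it was 0.12 in late torpor minus post-reproduction, -0.31 in early arousal minus post-reproduction and -0.34 in early arousal minus late torpor. Without a floor it was -0.15, -0.12 and 0.12 in these comparisons. Percentiles over all probes lie among probes near background. With the median as scaling it was 0.13, 0.11 and 0.064. Unscaled values gave 0.055 in late torpor and -0.12 in early arousal, each against post-reproduction, where quantile normalization gave 0.14 and -0.011, and strict detection 0.010 and -0.20. The total gene signal gave 0.015, -0.029 and 0.0025. The longer probe, which is also the brightest, gave -0.15 in early arousal minus late torpor and the shorter -0.023. Between members in late torpor minus post-reproduction, quantile normalization gave 0.013 for miR-29c minus miR-29a and 0.21 for miR-29c minus miR-29b. There miR-29b minus miR-29a was -0.12 with the longer and brightest probe, -0.29 with the shorter and -0.15 with the total signal, and miR-29c minus miR-29b was 0.023 with the longer and brightest probe and 0.16 with the shorter. Quantile normalization in early arousal minus post-reproduction gave -0.37 for miR-29b minus miR-29a, -0.21 for miR-29c minus miR-29a and 0.16 for miR-29c minus miR-29b, and miR-29c minus miR-29a was -0.28 with the longer and brightest probe and -0.41 with the shorter. Quantile normalization in early arousal minus late torpor gave -0.17 for miR-29b minus miR-29a and -0.053 for miR-29c minus miR-29b, which was -0.059 with the longer and brightest probe and -0.24 with the shorter. The count of miRNAs past the rule of size was 3 in late torpor minus post-reproduction, and it was 7 with all probes without a floor, 1 with normexp, 9 with the total gene signal and 5 with strict detection. In early arousal minus post-reproduction it was 5, and it was 10 with all probes with a floor, 2 with normexp and 10 with the total signal. In early arousal minus late torpor it was 4, and 0 with normexp. No difference of a member reached 2-fold under any alternative. Apart from array-wide shifts, the cause of these changes was not tested. No paired analysis was possible because each stage had 1 array. Signal over background did not limit the members, but it limits the star strands.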
